A study of Homo sapiens with 5 samples.

Results

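Lipoxin A4 and lipoxin B4 are positional isomers: both are trihydroxy fatty acids made from arachidonic acid, with the adjacent pair of hydroxyl groups near the carboxyl end in lipoxin A4 and farther along the chain in lipoxin B4. Their effects on mRNA levels were set against each other in MonoMac6, an established human line of monocytic cells. The comparison takes the 2 arrays titled with these compounds, of 5 arrays in the series, and was chosen by compound and not by any measured value. Cultures grown to near confluency received lipoxin A4 or lipoxin B4 at 100 nM, added as a DMSO stock, and were kept for 12 h. The other arrays hold unstimulated MonoMac6 cells and cells given leukotriene B4 or leukotriene C4 at the same dose and time. No label says if DMSO was also given to the unstimulated cells.

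Each condition was read on 1 array, so no difference below has an error, a test or an interval, and every value is a difference between single arrays that may be technical. The unstimulated array was set beside both lipoxin arrays to show which of them lay apart from it. The leukotriene arrays show how the same probe sets read on arrays of other stimuli. In a culture of 1 cell line, less RNA per cell and fewer cells making it cannot be told apart.

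Lipoxins are formed when lipoxygenases act in turn on arachidonic acid, often with the intermediate leukotriene A4 passing from a leukocyte to a neighbouring cell. They are known for limiting neutrophil recruitment and for prompting monocytes and macrophages to take up apoptotic cells. Lipoxin A4 signals through the formyl peptide receptor family member FPR2 and through GPR32, whereas the receptor for lipoxin B4 is less well defined. Lipoxin A4 has also been described as a ligand of the aryl hydrocarbon receptor, with SOCS2 among the genes downstream. The dehydrogenase HPGD and the reductase PTGR1 convert lipoxins to less active products.

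Signals are scaled intensities without a unit, and they depend on the probes of each probe set, so 1 gene's signal was never compared with another's. A floor was set at a signal of 48.7, the 50th percentile of the mean log2 signals of all probe sets. Values under it were raised to it. A gene at the floor on 1 side has only a bound, written as at least N-fold. A gene was counted as different at 2-fold, a log2 difference of 1. Differences are log2 of the lipoxin A4 signal minus log2 of the lipoxin B4 signal, so that positive values are higher with lipoxin A4.

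The scaling factors of the 5 arrays lay between 0.978 and 1.03. Of 18 monocyte and macrophage markers with a probe set, 16 were above the floor with lipoxin A4 and 12 with lipoxin B4. The summed signal of these markers was 101230 and 88663 against 108048 in unstimulated cells. The sums include LYZ, which read 46099 with lipoxin A4, 36105 with lipoxin B4 and 49119 unstimulated. Very bright probe sets in general read lower with lipoxin B4, and the part of this in the sums was not tested. CD14 had signals of 225 in unstimulated cells, 225 with lipoxin A4 and 195 with lipoxin B4. Markers of T cells were above the floor for 2 and 4 of 9 genes, with summed signals of 436 and 359, and markers of B cells for 4 and 5 of 7, with 441 and 498. In the marker lists of other cell types, CD8A, GP9 of platelets, DCN of fibroblasts and DES of muscle were at least 2-fold higher with lipoxin A4, the last 3 against the floor. The lipoxin arrays differed in their ribosomal RNA control probe sets. Middle 18S rRNA had a signal of 186 in unstimulated cells, 913 with leukotriene B4, 3069 with leukotriene C4, 365 with lipoxin A4 and 1056 with lipoxin B4. The part of this difference in the results below was not tested.

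Few genes separated the isomers, and they were dim. Of 15374 measured genes, 202 were at least 2-fold apart (1.31%), 126 of them higher with lipoxin A4 (0.82%) and 76 lower (0.494%). Among 7094 genes with a mean signal over 500, 0 were 2-fold apart (0%) and 47 were at least 1.5-fold apart (0.663%). Of the 202 genes, 195 had a mean signal under 200 and 161 had one under 100. For 116 of them (57.4%) 1 of the lipoxin arrays was at the floor, so the difference was a bound; the other 59 higher and 27 lower genes were above the floor on both. With a floor at the 70th percentile of signals, 1 gene was higher and 1 was lower, and with a floor at the 30th percentile 1080 were higher and 761 were lower.

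The spread of the differences was widest at low signals and narrowed above a signal of 200. Its standard deviation over genes was 0.39 among 5017 genes under a signal of 100, 0.45 among 1292 genes between 100 and 200, 0.28 among 1971 genes between 200 and 500, 0.20 among 3941 genes between 500 and 2000, and 0.14 among 703 genes over 8000. The median was close to 0 in every range but the brightest, where it was 0.11 and 574 of 703 genes (81.7%) were higher with lipoxin A4. Over all measured genes, 45.3% were above 0 and 42.1% were below 0.

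**Figure D1:**
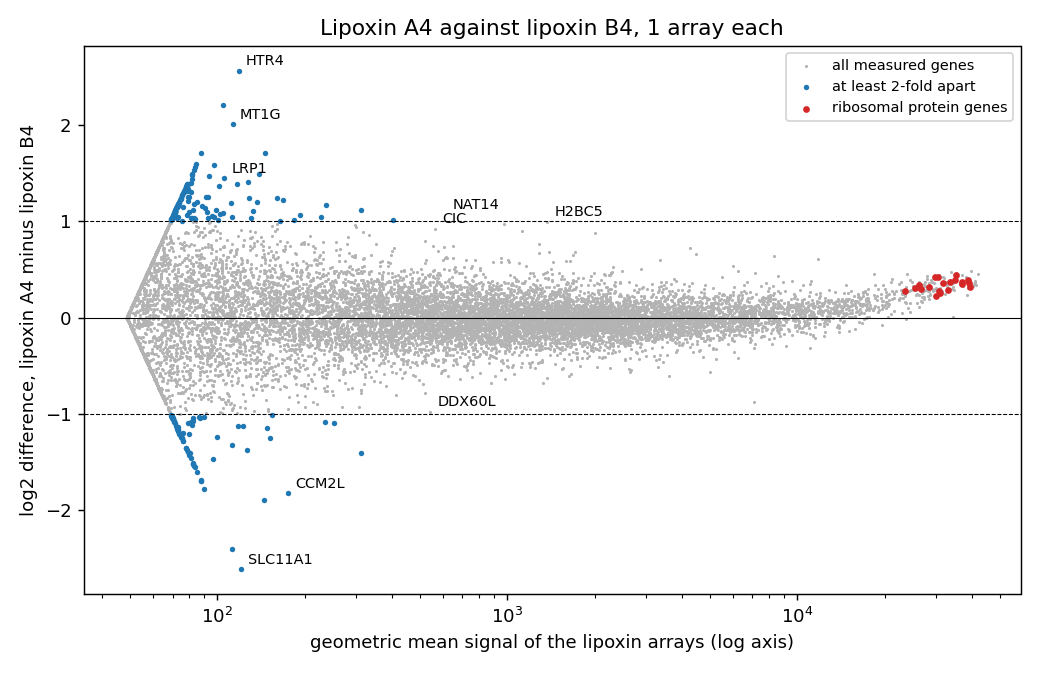
Each point is 1 of 15374 measured genes, with the geometric mean of its signals on the lipoxin arrays on the horizontal log axis and its log2 difference, lipoxin A4 minus lipoxin B4, on the vertical axis. Dashed lines mark 2-fold. The 202 genes at least 2-fold apart lie at low signals, 195 of them under 200, the slanted edges are genes at the floor on 1 array, and the ribosomal protein genes at the right all lie above 0.

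The lipoxin pair was among the closest of the 10 pairs of arrays. Its count of 202 genes at least 2-fold apart was the second lowest, after leukotriene B4 against lipoxin B4 with 197, and the other pairs gave between 223 and 437. The leukotrienes were apart from each other in 373 genes. Leukotriene B4 was apart from lipoxin A4 in 223, and leukotriene C4 from lipoxin A4 in 338 and from lipoxin B4 in 330. Whether likeness in structure bears on these counts was not tested. Among genes over a signal of 500, the 47 genes at least 1.5-fold apart were the fewest of any pair, the others giving between 53 and 159. At 2-fold, the count of 0 compares with 3 to 14 in the other pairs. These pairs share arrays, so the counts are not independent of each other, and how much 2 arrays of the same condition would differ was not measured.

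Genes of the receptors through which lipoxins act were mostly dim and none was 2-fold apart. FPR2, the receptor for lipoxin A4, had signals of 48.7 unstimulated, 54.5 with leukotriene B4, 48.7 with leukotriene C4, 48.7 with lipoxin A4 and 54.0 with lipoxin B4, all at or near the floor. FPR1, the high-affinity formyl peptide receptor, read 70.9, 48.7, 52.7, 56.9 and 74.9 in the same order (log2 -0.40). FPR3 and GPR32 were under the floor on all arrays. CMKLR1, the receptor for chemerin and resolvin E1, read 90.7, 49.0, 48.7, 79.3 and 53.2 (0.57), while its other probe set was at the floor on both lipoxin arrays (0.00).

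Of the other lipid receptors, GPR18, LTB4R, CYSLTR1 and PTGER4 had signals over 500 and were close on both lipoxin arrays on their brightest probe sets, while CYSLTR2 and PTGER2 were dimmer and farther apart. GPR18, a receptor described for resolvin D2, had 2980 unstimulated, 2718 with leukotriene B4, 3304 with leukotriene C4, 2813 with lipoxin A4 and 2495 with lipoxin B4 (log2 0.17). LTB4R, the leukotriene B4 receptor, read 906, 687, 702, 689 and 651 in that order (0.08), with other probe sets at 0.06 and 0.14, and both lipoxin arrays lay below the unstimulated one on this probe set. On the one that gave 0.06 they lay above it, at 456 and 437 against 416. CYSLTR1, the cysteinyl leukotriene receptor, read 1044, 1240, 1135, 1167 and 1040 (0.17). CYSLTR2, its relative, was at least 1.86-fold higher with lipoxin A4 (90.6 against the floor; unstimulated 75.7). The prostaglandin E2 receptors PTGER2 and PTGER4 gave 0.51 and 0.04. In all, 7 of 9 measured receptor genes were above 0 and 2 below, with a median of 0.17.

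The genes that make and break down leukotrienes and lipoxins differed little. ALOX5, the 5-lipoxygenase that starts the pathway, had signals of 143 unstimulated, 119 with leukotriene B4, 140 with leukotriene C4, 119 with lipoxin A4 and 128 with lipoxin B4 (log2 -0.11). Its partner ALOX5AP, which presents arachidonic acid to it, read 34336, 33323, 38844, 34442 and 25811 (0.42). For ALOX5AP the lipoxin B4 array was the lowest of the 5 and the lipoxin A4 array lay beside the unstimulated one. Very bright probe sets in general read lower with lipoxin B4, the ACTB controls by 0.35 to 0.49, and the part of this in the ALOX5AP value was not tested. LTA4H, the leukotriene A4 hydrolase, was at 0.07, LTC4S, the leukotriene C4 synthase, at -0.05, and PLA2G4A, the phospholipase that releases arachidonic acid, at -0.24. Of the inactivating enzymes, HPGD gave 0.09 and PTGR1 -0.09, and 3 other probe sets of HPGD lay between -0.31 and 0.54. The cyclooxygenases PTGS1 and PTGS2 gave 0.37 and -0.10. ALOX12, the platelet-type lipoxygenase, was at the floor on both lipoxin arrays. Of 13 measured genes of this group 5 were above 0, 6 below and 2 at 0, and 0 were 2-fold apart.

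The aryl hydrocarbon receptor and SOCS genes did not separate the isomers at 2-fold. The receptor gene AHR had signals of 671 unstimulated, 833 with leukotriene B4, 911 with leukotriene C4, 742 with lipoxin A4 and 870 with lipoxin B4 (log2 -0.23). Its target CYP1B1 read 925, 968, 1135, 1053 and 1011 (0.06). SOCS2, a brake on cytokine signalling, read 5871, 6785, 6678, 6019 and 6006 (0.00), the lipoxin arrays being nearly level and just above the unstimulated one. Of 14 measured genes in the group, 7 were above 0 and 7 below.

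Only 2 of 7533 genes with several measured probe sets were 2-fold apart on every one of them (0.0265%), and both are cell surface receptors that were lower with lipoxin B4. LRP1, on chromosome 12, is an endocytic receptor that clears lipoproteins and, with calreticulin, apoptotic cells. Its signals were 181 unstimulated, 192 with leukotriene B4, 71.6 with leukotriene C4, 175 with lipoxin A4 and 64.0 with lipoxin B4 (log2 1.45). On its other measured probe set they were 148, 150, 77.6, 166 and 24.7, the last under the floor (1.77 with the floor). On both probe sets the lipoxin A4 and leukotriene B4 arrays lay near the unstimulated one, and the lipoxin B4 and leukotriene C4 arrays lay below it.

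LILRB1, on chromosome 19, encodes an inhibitory receptor for HLA class I and was among the monocyte markers. It read 146 unstimulated, 131 with leukotriene B4, 106 with leukotriene C4, 108 with lipoxin A4 and the floor with lipoxin B4, at least 2.23-fold. The other measured probe set read 70.5, 47.0, 59.8, 101 and 12.3 before the floor was applied (1.05 with it). The lipoxin B4 array was the lowest of the 5 on both, but the lipoxin A4 array was below the unstimulated one on the first and above it on the second. Probe sets of 1 gene on the same arrays share the RNA sample, so they check the probes and not the culture.

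For most of the 202 genes no second probe set could be consulted, and where one could it often pointed the other way. Another probe set was above the floor on a lipoxin array for 47 of them. All such probe sets had the same direction for 20 genes, all had the opposite direction for 19, and 8 were mixed. A second probe set was 2-fold apart in the same direction for 3 genes and in the opposite direction for 5.

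The largest differences upward with lipoxin A4 among genes above the floor on both arrays came from a mixed group. Here and in the other direction, genes with another measured probe set of opposite sign were left out. Agreement in sign between the probe sets of these genes therefore follows from the choice. MT1G, a metallothionein that binds zinc and copper, led with 93.7 unstimulated, 82.0 with leukotriene B4, 169 with leukotriene C4, 226 with lipoxin A4 and 56.1 with lipoxin B4 (log2 2.01). The unstimulated signal lay between the lipoxin signals, and lipoxin A4 was the highest of the 5 arrays and lipoxin B4 the lowest. DEFB124, of the beta-defensin family of antimicrobial peptides, read 48.7, 48.7, 219, 265 and 81.0 (1.71), so that lipoxin A4 and leukotriene C4 were high together. MT1G and DEFB124 each have another probe set, and it was under the floor on all 5 arrays. CD8A, the T cell coreceptor chain, read 187, 159, 189, 169 and 56.3 (1.59), with lipoxin B4 alone lower. Of the other T cell markers, CD3D was at the floor on both lipoxin arrays and CD3E read 77.4 with lipoxin A4 and 53.3 with lipoxin B4. CD5 and ZAP70 ran the opposite way to CD8A, at the floor with lipoxin A4 and at 80.8 and 62.0 with lipoxin B4.

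PDE6G, the inhibitory subunit of the rod photoreceptor phosphodiesterase, read 256 unstimulated, 203 with leukotriene B4, 275 with leukotriene C4, 234 with lipoxin A4 and 83.1 with lipoxin B4 (log2 1.49), again with lipoxin B4 alone low. BMERB1 (1.44, other probe set 0.69 as a bound), the mast cell protease gene TPSD1 (2.64-fold), SPECC1 (1.39, other probe set 0.37), ZDHHC19, of a family of palmitoyltransferases (1.37), and the transcript MIR1915HG (1.34) followed. Lipoxin A4 was the highest of the 5 arrays for BMERB1, TPSD1, SPECC1 and ZDHHC19. Among genes known only as a bound, MCF2L, a guanine nucleotide exchange factor, was at the floor on the unstimulated, leukotriene B4 and lipoxin B4 arrays and read 119 with leukotriene C4 and 126 for lipoxin A4, at least 2.58-fold. One of its other probe sets also gave 1.28, with a signal of 118 on the lipoxin A4 array alone, while 2 more gave 0.20 and 0.00, the last under the floor on both lipoxin arrays.

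The numerically largest difference of all in the direction higher with lipoxin A4 was that of HTR4, a serotonin receptor gene, named here after its values were seen. Against unstimulated cells it was 0.52 higher with lipoxin A4 and -2.04, a bound, with lipoxin B4, so lipoxin B4 was the array apart. It read 201 unstimulated, 120 with leukotriene B4, 49.9 with leukotriene C4, 288 with lipoxin A4 and the floor with lipoxin B4 (log2 2.57, a bound), and no other probe set backed it.

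In the other direction CCM2L, a relative of the cerebral cavernous malformation gene CCM2, had 289 unstimulated, 158 with leukotriene B4, 125 with leukotriene C4, 92.8 with lipoxin A4 and 329 with lipoxin B4 (log2 -1.83). Lipoxin B4 lay near the unstimulated signal and the other stimulated arrays lay below it. HROB, a factor of homologous recombination, read 108, 168, 159, 58.2 and 161 (-1.47), and CNTFR, the ciliary neurotrophic factor receptor, read 233, 155, 171, 71.2 and 178 (-1.32). In both, lipoxin A4 was the lowest of the 5. PTPDC1, of the protein tyrosine phosphatase family, read 143, 145, 227, 49.3 and 130 (-1.40), and its other probe set read 118, 156, 140, 69.7 and 121 (-0.80), lipoxin A4 being the lowest on both.

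GNB1L, a gene of the WD-repeat family, read 185 unstimulated, 170 with leukotriene B4, 276 with leukotriene C4, 78.6 with lipoxin A4 and 203 with lipoxin B4 (log2 -1.37). Its other probe sets gave -0.80 and, under the floor on both lipoxin arrays, 0.00. CYP2D6, a drug-metabolising cytochrome, was lowest with lipoxin A4 among the 5 arrays (50.2 against 115 with lipoxin B4, -1.20). Its other probe set gave -0.77, a bound. LINC00424 (-1.37), LOC102724851 (-1.25), HCG22 (-1.21) and RPL10L, a copy of the ribosomal protein gene RPL10 (-1.15), completed the 10 largest under this choice. For LINC00424 and HCG22 the unstimulated and lipoxin A4 arrays were both near the floor, and lipoxin B4 was the highest of the 5. Metallothionein, histone, LILR, CYP2D and RPL10 genes have near-identical relatives, so the assignment of MT1G, MT1E, H2BC5, LILRB1, CYP2D6 and RPL10L signals to 1 gene is uncertain.

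**Figure D2:**
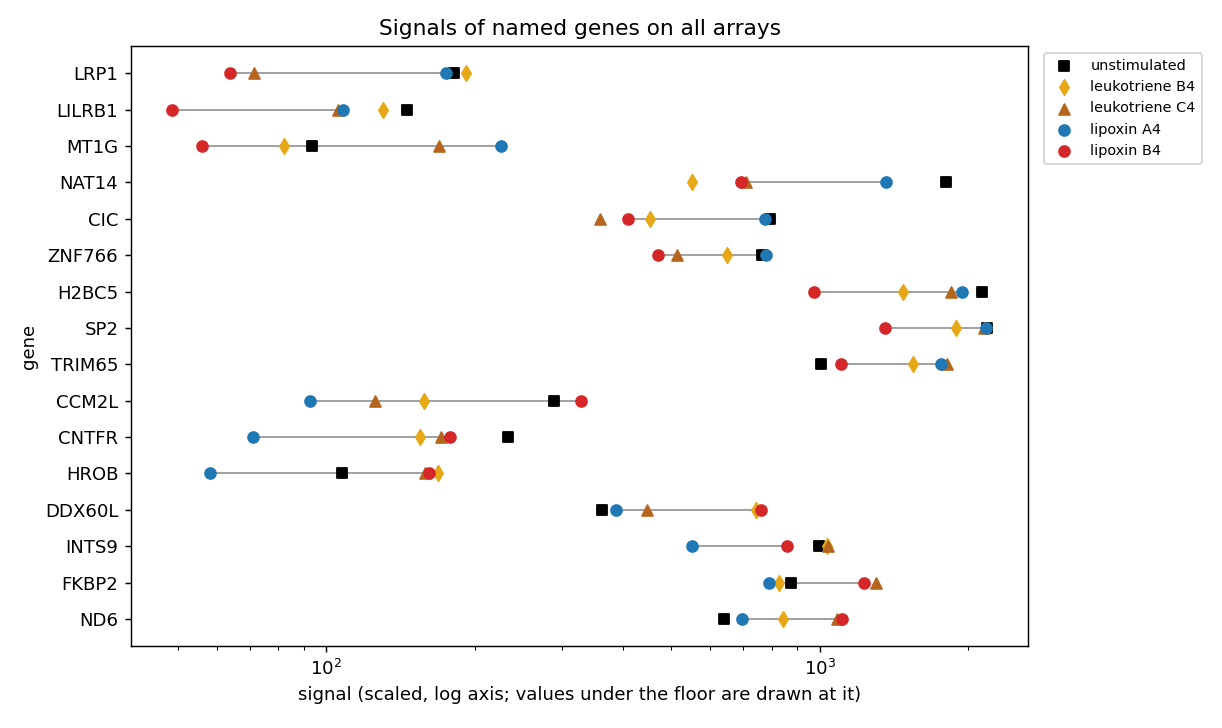
Signals of 16 named genes on all 5 arrays, on a log axis, with a grey line joining the lipoxin A4 and lipoxin B4 arrays of each gene. For CIC, ZNF766 and SP2 the lipoxin A4 array lies on or beside the unstimulated one and the lipoxin B4 array lies lower, while for INTS9 the lipoxin A4 array is lowest at 551.

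The 202 genes were divided by which lipoxin array lay at least 2-fold from unstimulated cells. They were chosen by the difference between the lipoxin arrays and most were dim. The division therefore describes these arrays and cannot tell which compound acted. Lipoxin A4 alone was at least 2-fold from unstimulated in 77 of them, 38 higher and 39 lower with lipoxin A4 than with lipoxin B4. Lipoxin B4 alone was 2-fold away in 50, of which 38 were lower with lipoxin B4 and 12 higher. Both were away in 1 gene, and neither in 74, where the unstimulated signal lay between them. Lipoxin A4 was the nearer to unstimulated in 95 of the 202 genes. Over all measured genes, lipoxin A4 was at least 2-fold from unstimulated in 368 genes (2.39%) and lipoxin B4 in 380 (2.47%), and these comparisons share the unstimulated array. Lipoxin A4 lay beyond the other 4 arrays in 130 of the 202 genes and lipoxin B4 in 100. Choosing genes by the difference between these arrays favours both counts, and no share over all genes is given beside them.

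**Figure D3:**
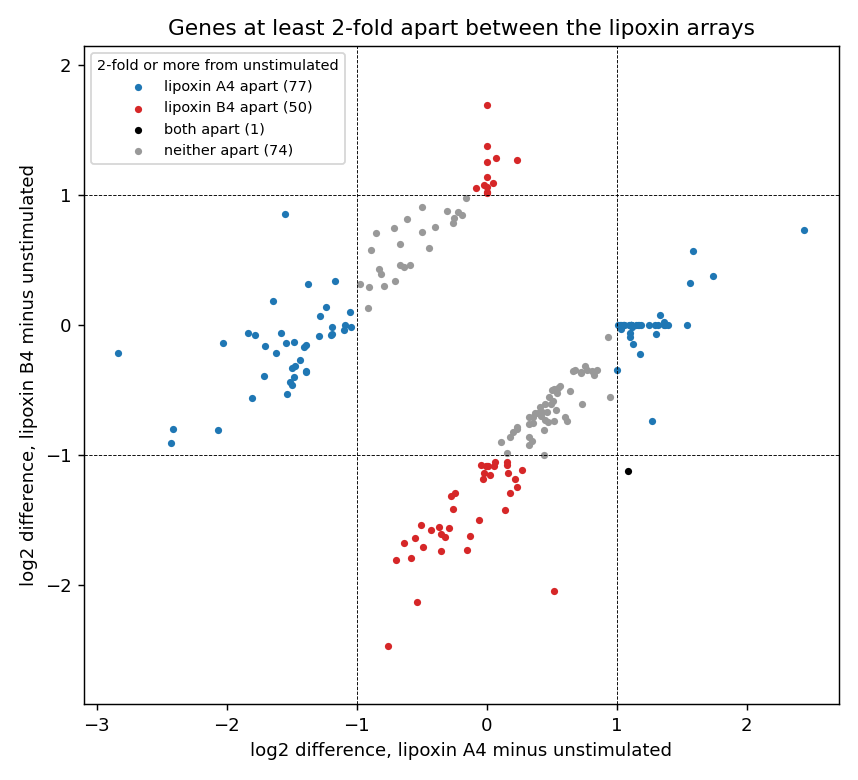
Each point is 1 of the 202 genes at least 2-fold apart, with its log2 difference from the unstimulated array for lipoxin A4 on the horizontal axis and for lipoxin B4 on the vertical axis. Lipoxin A4 alone was past a dashed 2-fold line in 77 genes and lipoxin B4 alone in 50; both axes share the unstimulated array, and the empty diagonal band follows from the choice of the genes.

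Among brighter genes the lipoxin B4 array was the one farther from unstimulated cells. Over a signal of 500, 53 of 7093 genes were at least 1.5-fold from unstimulated with lipoxin A4 (0.747%) and 159 of 7078 with lipoxin B4 (2.25%). At 2-fold the counts were 3 and 14. Of the 31 bright genes at least 1.5-fold higher with lipoxin A4 than with lipoxin B4, the unstimulated signal was nearer lipoxin A4 in 26, and of the 16 lower ones in 13. Both leukotriene arrays were nearer lipoxin B4 in 12 of the 31 and in 4 of the 16. Over all genes over 500, the median absolute log2 difference from unstimulated was 0.12 with lipoxin A4 and 0.16 with lipoxin B4. No share over all bright genes is given beside these counts, so they are not shown to be particular to the 47 genes. Other probe sets existed for 31 of the 47 genes and had the same direction in 14, the opposite in 8 and both in 9.

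NAT14, of the N-acetyltransferase family, had signals of 1797 unstimulated, 551 with leukotriene B4, 709 with leukotriene C4, 1361 with lipoxin A4 and 693 with lipoxin B4 (log2 0.97). CIC, the transcriptional repressor Capicua that acts downstream of receptor tyrosine kinases, read 793, 453, 358, 774 and 408 in that order (0.92). In both genes the lipoxin A4 and unstimulated arrays lay above the other 3, with no overlap. Both have 1 measured probe set. PRKACA, the catalytic subunit of protein kinase A, named here after its values were seen, showed the same order with 1875, 896, 1046, 1625 and 1021 (0.67), and its other probe set read 270, 85.1, 189, 261 and 85.8 (1.61). Along the same arrays middle 18S rRNA ran the other way, at 186 and 365 on the unstimulated and lipoxin A4 arrays and 913, 3069 and 1056 on the rest, and its part in these differences was not tested.

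ZNF766, a zinc finger gene, read 763 unstimulated, 649 with leukotriene B4, 514 with leukotriene C4, 779 with lipoxin A4 and 469 with lipoxin B4 (log2 0.73). SP2, a transcription factor related to SP1, read 2183, 1888, 2150, 2170 and 1354 (0.68), with lipoxin B4 alone low. The other measured probe set of SP2 was under the floor on both lipoxin arrays. H2BC5, a histone H2B gene, read 2133, 1470, 1846, 1937 and 971, a 1.99-fold difference, but its other probe set gave 0.04. TRIM65, a ubiquitin ligase, differed from these in that unstimulated cells lay with lipoxin B4: it read 1003, 1548, 1806, 1763 and 1101 (0.68).

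Bright genes lower with lipoxin A4 were led by DDX60L, a helicase related to the interferon-induced DDX60, at 362 unstimulated, 744 with leukotriene B4, 447 with leukotriene C4, 386 with lipoxin A4 and 761 with lipoxin B4 (log2 -0.98); its other probe set gave -0.03. INTS9, a subunit of the Integrator complex, read 996, 1034, 1039, 551 and 859 (-0.64), and ZBTB48, a telomere-binding zinc finger protein, read 622, 605, 670, 402 and 649 (-0.69). In both, lipoxin A4 lay below the other 4 arrays. ND6, a complex I subunit encoded by the mitochondrial genome, read 638, 844, 1086, 694 and 1110 (-0.68), and FKBP2, a prolyl isomerase of the endoplasmic reticulum, read 873, 828, 1299, 788 and 1227 (-0.64). Lipoxin B4 and leukotriene C4 were the high arrays for both. PHLDA2, an imprinted gene, read 1219, 1255, 1000, 1102 and 1700 (-0.63; other probe set -0.11), with lipoxin B4 the highest.

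Genes of the uptake of apoptotic cells, the process lipoxins are best known to promote, had 18 of 27 measured members above 0 and 9 below, with a median of 0.13. Over all genes the median was 0.00, and 6970 (45.3%) were above 0, 6472 below and 1932 at 0. The list had 0 members at 0, so the shares above 0 are not alike in this. The 2 members at least 2-fold higher with lipoxin A4 were LRP1 and STAB1, the scavenger receptor stabilin-1. STAB1 read 86.0 unstimulated, 48.7 with leukotriene B4, 98.2 with leukotriene C4, 123 with lipoxin A4 and 51.7 with lipoxin B4 (log2 1.26), and its other 3 probe sets lay between -0.12 and 0.96. Among members named for their role after their values were seen, ITGB3, the integrin chain that binds bridging proteins on dying cells, gave 0.71 with other probe sets from 0.00 to 0.26. The receptor kinases MERTK and AXL gave 0.00 and 0.61, the second against the floor. CD36 gave 0.33 (81.9 against 65.2), CD163 0.38 (63.2 against the floor), and ANXA1, the annexin that also binds FPR2, 0.02. The members farthest below 0 were PROS1, a bridging protein for the receptor kinases (-0.54), the scavenger receptor OLR1 (-0.54) and the engulfment adaptor GULP1 (-0.49), OLR1 and GULP1 with lipoxin A4 at the floor.

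Inflammatory mediators gave no 2-fold difference. Of 16 measured chemokine genes 5 were above 0, 6 below and 5 at 0, with a median of 0.00. CCL2, the main monocyte attractant, read 769 unstimulated, 727 with leukotriene B4, 1804 with leukotriene C4, 777 with lipoxin A4 and 763 with lipoxin B4 (log2 0.03), so both lipoxins lay level with unstimulated cells. CXCL8, which attracts neutrophils, read 896, 896, 1123, 701 and 605 (0.21), the lipoxin arrays being the lowest pair. Of 11 measured pro-inflammatory cytokines 6 were above 0 and 4 below; TNF gave -0.08, IL1B 0.08 and CSF1, the macrophage growth factor, 0.77 with other probe sets at 0.22 and 1.08. The 20 NF-kappaB subunits and targets had 10 above 0, 9 below and a median of 0.01, and 23 immediate early genes had 13 above, 8 below and a median of 0.04.

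Among 19 anti-inflammatory and feedback genes 10 were above 0 and 9 below, and 1 was 2-fold apart. That was DUSP1, a phosphatase that switches off MAP kinases, at 102 unstimulated, 130 with leukotriene B4, 107 with leukotriene C4, 120 with lipoxin A4 and 58.9 with lipoxin B4 (log2 1.02). Its other measured probe set was under the floor on both lipoxin arrays, so it gave no difference between them to compare. That probe set read 151 unstimulated and 122 with leukotriene C4, so both lipoxin arrays lay below the unstimulated one on it. On the first probe set lipoxin A4 lay above the unstimulated array, so the probe sets disagree on lipoxin A4. Of 24 interferon-stimulated genes 9 were above 0, 12 below and 3 at 0. OAS3, which makes the second messenger of the RNase L antiviral pathway, was the 1 member 2-fold apart, at 171, 86.3, 64.1 and 105 on the first 4 arrays and at the floor with lipoxin B4, at least 2.16-fold.

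Oxidase, granule and protease genes had 15 of 21 members above 0 with a median of 0.13. The median signal of the list was 7754, and among all genes over 8000 a larger share was above 0 (81.7%), with a median of 0.11. The list also holds members between 2000 and 8000, among them NCF1 and NCF4, where the share was 45.9%. Neither share is matched to the brightness of its members. SLC11A1, the phagosomal metal transporter NRAMP1, was the 1 member 2-fold apart and its probe sets disagreed. On the brightest it read 347 unstimulated, 231 with leukotriene B4, 298 with leukotriene C4, the floor with lipoxin A4 and 299 with lipoxin B4 (at least 6.14-fold lower with lipoxin A4). On another it read 295, 242, 217, 197 and, with lipoxin B4, under the floor (log2 2.01, higher with lipoxin A4), and on the third the difference was -0.60. No direction can therefore be given for this gene. Metallothionein genes were also divided. MT1E read 179, 93.5, 172, 208 and 78.5 (1.41; other probe set -0.31), MT2A gave 0.48 and MT1F 0.21, while MT1X gave -0.85 (the floor against 87.5; other probe set 0.62). For MT1E, scaling by the 2 lipoxin arrays alone made the other probe set the brighter one and turned its value to -0.31.

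The cytosolic ribosomal protein genes were the list most uniformly displaced, with 20 of 20 measured members above 0, a median of 0.34 and a range from 0.22 to 0.44. RPL30 had signals of 43476 unstimulated, 42332 with leukotriene B4, 48387 with leukotriene C4, 41167 with lipoxin A4 and 30377 with lipoxin B4 (log2 0.44). RPS24 read 36397, 36110, 39206, 34629 and 25829 (0.42), although its other probe set gave -0.43. RPS3 had the smallest difference (0.22). The list's median was -0.08 for lipoxin A4 and -0.43 for lipoxin B4 against unstimulated cells, so the lipoxin B4 array lay low. It did so for bright probe sets in general: over a signal of 8000 the median of all genes was 0.11, the ACTB control probe sets gave 0.35 to 0.49, and the bacteriophage cre transcript, a control added to each sample that read 40146 on its 3′ probe set with lipoxin A4, gave 0.25 and 0.18 on its probe sets. The added controls bioB, bioC and bioD, which read 758, 1961 and 15376 with lipoxin A4, gave -0.35, -0.28 and 0.04. After quantile normalization, which gives all arrays the same distribution of signals, the ribosomal median was 0.03.

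Ribosomal protein mRNAs are known for starting with a cytosine and a run of pyrimidines, through which their translation follows growth signals, and the start sites of members far from 0 are shown because the members were displaced together. RefSeq promoters (GRCh38.p14) were available for 17 of the 20 genes. A C followed by at least 5 C or T bases, on the transcribed strand and within 20 bases of the start, was found in at least 1 promoter of 16 of them, against 35.5% of 27305 genes. Each line gives 20 bases before and 20 after the annotated start, with the run in capitals.
RPS24, chr10:78033843-78033882, + strand: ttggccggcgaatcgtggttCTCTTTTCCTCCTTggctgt
RPS18, chr6:33272055-33272094, + strand: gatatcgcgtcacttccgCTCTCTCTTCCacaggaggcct
RPS27, chr1:153990742-153990781, + strand: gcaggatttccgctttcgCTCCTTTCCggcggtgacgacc

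RPS18 and RPS27, whose runs cover 11 and 9 bases against 14 in RPS24, had differences of 0.42 and 0.39. The run was also present in RPS3, the member with the smallest difference. The match describes the gene family and says nothing about what set the array signals.

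Another bright gene, WASF2, which drives branched actin, read 2756 unstimulated, 2112 with leukotriene B4, 2001 with leukotriene C4, 2721 with lipoxin A4 and 1953 with lipoxin B4 (log2 0.48), and its other probe sets gave 0.29 and 0.83, so that lipoxin A4 lay with unstimulated cells on the brightest. Cholesterol and fatty acid synthesis genes had 14 of 16 above 0 and a median of 0.14, or 0.10 after quantile normalization. Of all genes, 45.9% were above 0 between signals of 2000 and 8000 and 81.7% over 8000. The list has members in both ranges, so neither share is matched to it. FASN, the fatty acid synthase, read 9069, 5696, 6453, 7375 and 5267 (0.49; other probe set 0.12), with unstimulated and lipoxin A4 the higher arrays. ACACA, which makes its substrate malonyl-CoA, gave 0.45 and HMGCS1, of the sterol branch, -0.19. WASF2, FASN, ACACA and HMGCS1 were named after their values were seen.

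Of the remaining lists, glycolysis and hypoxia genes had 15 of 21 above 0 (median 0.13), HLA class II and costimulation genes 10 of 16 (0.16), heat shock proteins 13 of 16 (0.06) and respiratory chain genes 13 of 18 (0.09). Heat shock and respiratory chain genes are bright, with median signals of 8155 and 12605, and their shares lay at or under the 81.7% of all genes over 8000. Heat shock members under 8000, among them HSPA4 and DNAJB1, are not matched by that share. For glycolysis genes, with a median signal of 3622, the share of all genes between 2000 and 8000 that was above 0 was 45.9%. That list also holds members over 8000, among them ALDOA, GAPDH and LDHA, where the share was 81.7%. The 45.9% is therefore not matched to the brightness of its members. The HLA median fell to 0.00 with the floor at the 70th percentile and to -0.01 with the mean of all probe sets, and the respiratory chain median to -0.03 after quantile normalization. Lysosomal genes had 12 of 18 above 0 (0.05), unfolded protein and amino acid stress genes 11 of 18 (0.04), adhesion and chemotaxis receptors 10 of 19 (0.05), LXR and PPAR targets 9 of 16 (0.02) and NRF2 and metallothionein genes 9 of 16 (0.01).

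Medians under 0 were found for 3 lists beside the aryl hydrocarbon receptor and interferon lists at 0.00. These were p53 targets and apoptosis genes, with 11 of 18 members below 0 (-0.05), cell cycle and DNA replication genes, with 16 of 29 (-0.02), and nuclear noncoding and snoRNA host transcripts, with 4 of 7 (-0.11). GAS5, a snoRNA host transcript that accumulates in growth arrest, was the 1 member of these at least 2-fold apart, at 92.2 unstimulated, 119 with leukotriene B4, 72.1 with leukotriene C4, 82.7 with lipoxin A4 and 181 with lipoxin B4 (log2 -1.13), lipoxin B4 alone being high. MALAT1, an abundant nuclear transcript named after its values were seen, read 5579, 5636, 5594, 5386 and 7232 (-0.43), again with lipoxin B4 alone high, and its 11 other probe sets lay between -1.05 and 0.14.

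**Figure D4:**
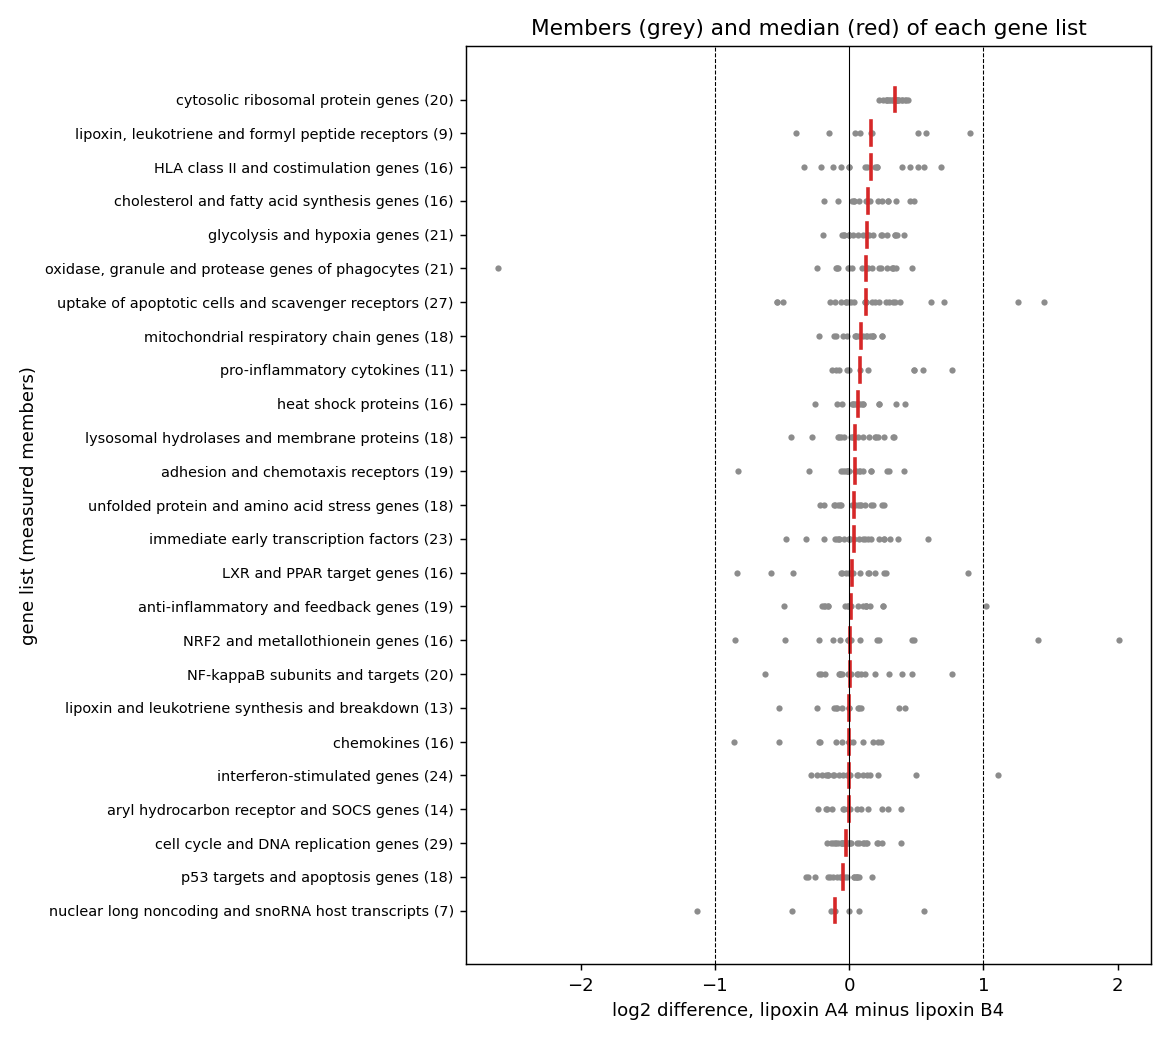
Each grey point is a measured member of 1 of 25 gene lists, placed by its log2 difference, lipoxin A4 minus lipoxin B4, with the list's median in red and dashed lines at 2-fold. The ribosomal protein genes stand at the top with a median of 0.34 and 0 members below 0, and most other lists straddle 0.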

How the data were processed

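The files hold deposited linear intensity signals for 54675 probe sets on 5 arrays, which the authors made with GCOS 1.4 (per the submitters' processing notes); no algorithm for the signal was stated in those notes. Leaving out the outer 2% of probe sets, the deposited signals had a mean of 499.9 on all 5 arrays, so they had been scaled before deposit. Platform annotation gave 1 symbol to 41097 probe sets, several to 1801 and none to 11777; 62 are controls. Gene identifiers matched GRCh38.p14 for 41043.

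Each array was rescaled by 1 factor to an equal median log2 signal over the brighter 50% of probe sets. Values under the 50th percentile of mean log2 signal were raised to it (48.7). Probe sets above it on at least 1 array were measured, 29420 with 1 symbol. Each of 15374 genes took its probe set of highest mean signal. No replicate exists and no label says that cultures were separate, so no test was run. The number of arrays limits precision.

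Named genes were up to 10 each way above the floor on both arrays, up to 4 each way that were bounds backed by another probe set, up to 6 each way over a signal of 500, genes 2-fold apart on all probe sets, up to 3 members per list at 2-fold, and the pathway genes. Genes among the 10 or the 6 had no other measured probe set of opposite sign. Members, 26 gene lists and 7 marker lists were chosen with earlier results of these data known; 1 gene list is not reported here. Alternatives were other floors, folds and scalings and the mean of probe sets. Counting was tested on simulated data. Python 3.11.15, numpy 2.4.6, pandas 2.3.3 and matplotlib 3.10.9 were used.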

Additional observations from a re-analysis of the deposited data

Results flagged for a closer look

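The ribosomal RNA control probe sets, which enter none of the comparisons, were above the unstimulated array on both lipoxin arrays. For 18S rRNA the fold over unstimulated was 1.63 with lipoxin A4 and 4.62 with lipoxin B4 on the 5′ probe set, 1.96 and 5.66 on the middle one, and 1.90 and 2.15 on the 3′ one. For 28S rRNA it was 1.97 and 3.45 on the 5′ probe set and 1.36 and 1.59 on the middle one. All 5 probe sets were higher with lipoxin B4 than with lipoxin A4, each on 1 array. Their part in the differences between the lipoxin arrays was not tested.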

How the results depend on the processing

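Counts moved most with the floor and the fold. They are given in the order higher with lipoxin A4, lower, lipoxin A4 apart, lipoxin B4 apart, both apart and neither apart, then genes 2-fold apart on every probe set. A floor at the 30th percentile gave 1080, 761, 785, 671, 70, 315 and 35. A floor at the 70th percentile gave 1, 1, 1, 0, 0, 1 and 0. Adding 16 in place of a floor gave 678, 467, 469, 409, 16, 251 and 20. A 3-fold threshold gave 7, 9, 7, 5, 0 and 4, and a 1.5-fold threshold gave 610, 466, 385, 369, 66 and 256. Quantile normalization left 0 genes with both lipoxins apart and 1 gene over a signal of 500 at 2-fold; it gave 116 higher and 91 lower genes (56.0% higher, against 62.4%). The values as deposited gave 123 and 82, the mean of probe sets 94 and 53, and scaling by the lipoxin arrays alone, chosen after seeing the data, 127 and 74. The median of all genes moved by at most 0.01. The sign turned for pro-inflammatory cytokines (-0.0472), HLA class II genes (-0.0001) and markers of epithelium and liver (0.0325) with the floor at the 70th percentile, for HLA class II genes with the mean of probe sets (-0.0123), for respiratory chain genes after quantile normalization (-0.0307) and for MT1E under the lipoxin arrays' own scaling (-0.314); except for MT1E, where another probe set became the brighter one, the cause was not tested. Of 28 genes named for a 2-fold difference, 28 were still 2-fold apart with the lower floor and as deposited, 27 after quantile normalization, 20 with the mean of probe sets, 25 without a floor and 26 with scaling by the lipoxin arrays alone. With the higher floor 5 had a value and 0 were 2-fold apart; 3 kept their direction, and PDE6G and GNB1L were at 0.

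No paired analysis was possible because each condition has 1 array and the labels give no replicate numbers. Leaving out a replicate was not possible for the same reason. Dim probe sets limit the comparison: 161 of the 202 genes had a mean signal under 100, against a floor of 48.7.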
